A study of Danio rerio with 6 samples.

Results

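The low-density lipoprotein (LDL) receptor family was described in sorted endothelial cells of 48 hpf zebrafish embryos, through 9 genes of the 31701 in the deposited table: lrp1aa, lrp1ab, sorl1, ldlra, vldlr, lrp8, lrp2a, lrp5 and lrp6. lrp1aa and sorl1 were selected on their normalized values, which were higher in both hhex mutant libraries than in siblings, and the other 7 genes are their relatives. The values of lrp1aa and sorl1 in mutants are therefore a description, with no test. Their values in overexpression against siblings and all values of the 7 relatives were tested. For lrp1aa and sorl1 that test shares the sibling libraries with the choice and so is not independent of it. All 9 genes reached the minimum for testing, an average of 5 over the 6 libraries. Throughout, a value is the normalized read number of a gene in 1 library, that is its reads divided by a size factor of the library, and a fold change is on the log2(value + 1) scale.

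The study compared 3 groups of strain AB with 2 libraries each. Siblings and hhex mutants both carried Tg(kdrl:EGFP)s843, which labels endothelial cells with EGFP, and were told apart by whether the embryos had parachordal lymphangioblasts, so that a sibling embryo could carry the mutation on 1 chromosome. The mutants carried the s722 allele, a TALEN-made lesion in hhex, a homeodomain transcription factor gene. The overexpression embryos carried Tg(kdrl:EGFP)s843 together with Tg(fli1a:tdTomato-2A-hhex)bns136, in which the endothelial fli1a promoter drives tdTomato and hhex, and their cells were sorted for EGFP and tdTomato together, a narrower gate than the EGFP gate of the other groups. Each library came from cells sorted from dissociated embryos, and the labels do not say whether the 2 libraries of a group came from separate clutches, so p-values measure only the spread between these libraries. The gene models in use were those of GRCz10.

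Members of this family are cell-surface receptors whose extracellular parts hold cysteine-rich LDL receptor repeats, and they bind lipoproteins, proteases, matrix proteins and growth factors and carry them into endosomes. LRP1 and its relatives are known in mammals for uptake of lipoprotein remnants and protease complexes in many tissues, SORL1 for sorting cargo between the Golgi and endosomes with the retromer, and LRP5 and LRP6 for acting beside Frizzled as co-receptors of Wnt. In mammals endothelial LRP5 and its Frizzled partner are required for growth of retinal vessels.

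The libraries held normalized totals between 19133058 and 23381023, rebuilt from the steps between low values as 19651603 to 23615228 reads on genes. All 10 genes of an endothelial marker list were detected in every library, and their summed value was lowest in sibling replicate 1 (15688) and mutant replicate 1 (11604) and between 26127 and 37097 in the other 4 libraries. The mutant libraries differed most from each other, with a median SD of 0.305 (log2) over genes averaging 50 or more, against 0.2 in siblings and 0.174 in overexpression. hhex itself, listed under another name in the table, had values of 204 and 279 in siblings, 613 and 1157 in mutants, and overexpression had 764 and 925. The values of mutants and of overexpression are both higher than those of siblings, and reads of the mutated transcript are counted in the mutant libraries. The log2 fold change of hhex against siblings was 1.815 in mutants and 1.813 in overexpression (SE 0.33 for both). Neither passed the adjusted threshold of 0.05 (limma adjusted p = 0.191 in overexpression). The paper, which used another method, lists hhex as significantly different from siblings in both groups. The paper also saw more endothelial hhex in mutants by in situ hybridization, and proposes that hhex can lower its own expression.

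lrp1aa (ENSDARG00000097827, chromosome 11, 1601950 to 1867375, plus strand) encodes one of the Lrp1 receptors of zebrafish, homologues of the mammalian endocytic receptor LRP1. It had values of 307 and 262 in siblings, 730 and 1528 in mutants, while overexpression had 208 and 320. Both mutant libraries lay above all 4 others, and mutant replicate 2 was the highest by far. Siblings averaged 284.5 ± 31.8 (SD, n = 2), mutants 1129 ± 564 (SD, n = 2) and overexpression 264 ± 79.2 (SD, n = 2), a ratio of 3.97 between mutants and siblings. On the log2 scale mutants exceeded siblings by 1.89, and overexpression stood at -2.03 relative to mutants, both with a standard error (SE) of 0.38 and neither tested. Overexpression overlapped siblings, with a log2 fold change of -0.14 (SE 0.38, limma adjusted p = 0.878).

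sorl1 (ENSDARG00000013892, chromosome 15, 21605278 to 21733886, minus strand) encodes the homologue of the mammalian sorting receptor that joins LDL receptor repeats with a Vps10 domain. It had values of 162 and 192 in siblings, 483 and 420 in mutants, and overexpression had 113 and 176. The mutant libraries were close to each other here and lay above the other 4, at 451.5 ± 44.5 (SD, n = 2) on average, where siblings had 177 ± 21.2 (SD, n = 2). The untested log2 difference was 1.35 for mutants relative to siblings and -1.67 for overexpression relative to mutants, with an SE of 0.29. Overexpression and siblings overlapped, at a log2 fold change of -0.32 (SE 0.29, limma adjusted p = 0.6).

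lrp1ab (ENSDARG00000029146, chromosome 23, 25526115 to 25760413, minus strand), the paralogue of lrp1aa, was not part of the choice and had the same order of groups. Its values were 482 and 554 in siblings, 1096 and 2050 in mutants, and overexpression had 402 and 474. Both mutant libraries again exceeded the other 4, as for 6.64% of all genes tested, replicate 2 more than replicate 1, and both overexpression libraries lay below both siblings. The log2 fold change was 1.53 between mutants and siblings (SE 0.31, unadjusted p = 0.00113, limma adjusted p = 1), -1.78 between overexpression and mutants (SE 0.31, unadjusted p = 0.000443, limma adjusted p = 0.116) and -0.24 between overexpression and siblings (limma adjusted p = 0.721). None of the 3 comparisons passed the adjusted threshold of 0.05 in the fit of all 6 libraries. Without mutant replicate 1 the first fold change was 1.99 and the second -2.23, and without mutant replicate 2 the first was 1.08 and the second -1.33. In these fits the lone mutant library was assumed to vary like the other groups, and the comparisons with mutants share the mutant libraries.

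**Figure D1:**
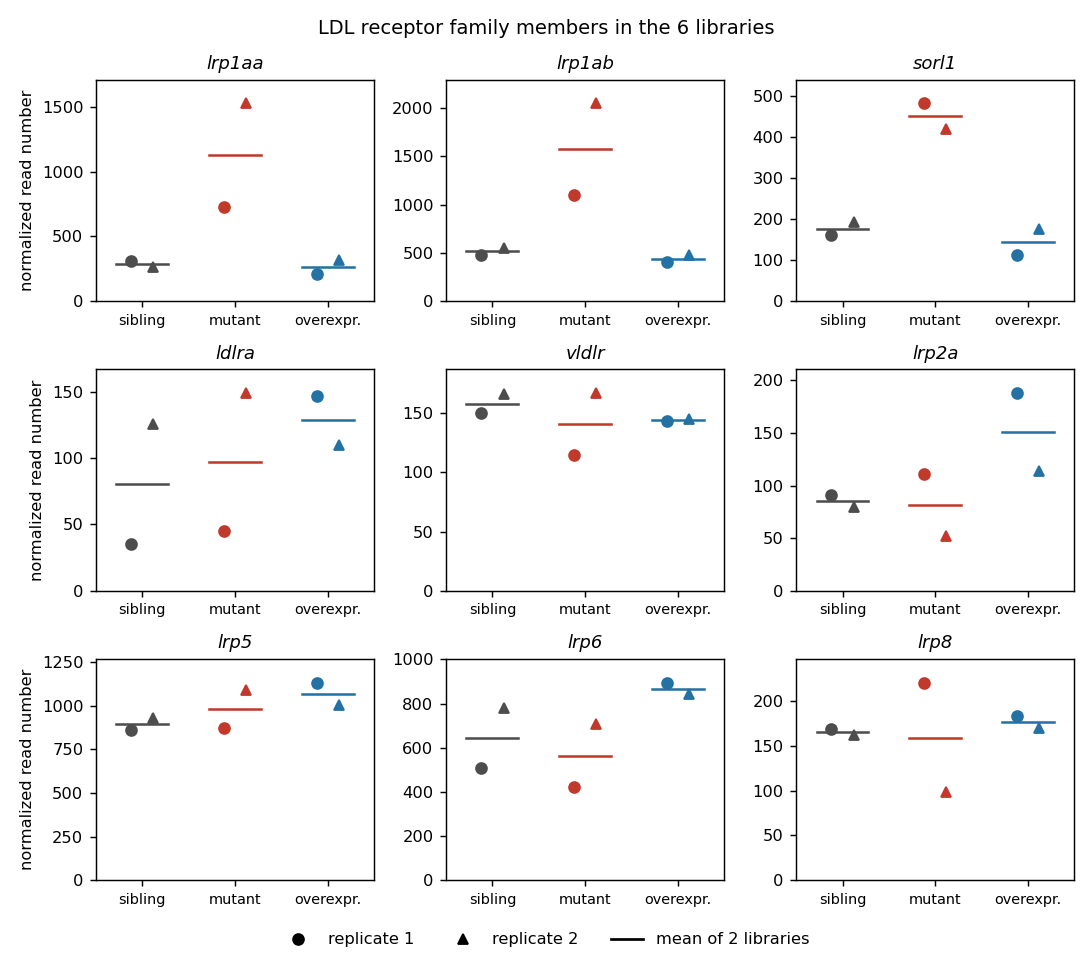
Normalized read number (vertical axes, from 0) of the 9 receptor genes in the sibling, mutant and overexpression libraries, with circles for replicate 1, triangles for replicate 2 and a bar for the mean of 2. In the panels of lrp1aa, lrp1ab and sorl1 both mutant libraries sit above the other 4, from 730, 1096 and 420 upward, while in the other 6 panels the mutant points overlap the siblings.

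The Lrp1 paralogues were close to each other across libraries. lrp1aa made up between 32.1% and 42.7% of the summed value of the pair, where only the change between libraries can be read because gene length enters the share. Siblings had 38.9% and 32.1%, mutants 40% and 42.7%, and overexpression 34.1% and 40.3%, so the share in mutants was only slightly above the highest of the other libraries in 1 of its 2 libraries. Reads with several alignments were left out of the counting, so reads from stretches that the paralogues share may be missing from both, and their separate levels are uncertain to that extent.

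Among the 11850 genes averaging 50 or more, the lowest mutant value divided by the highest value of the other 4 libraries was 2.28 for lrp1aa, 2.19 for sorl1 and 1.98 for lrp1ab. Only 5 of these genes (0.0422%) reached 2, and, named after their values were seen, they were ptpn13, a protein tyrosine phosphatase gene, at 3.36, lrp1aa, the Notch receptor gene notch2 at 2.28, sorl1, and the bicarbonate cotransporter gene slc4a4b at 2.08. neo1a, encoding the netrin and RGM receptor neogenin, followed at 1.98, just outside and next to lrp1ab. For lrp1aa and sorl1 these ratios use the measure that chose them. The other 6 receptor genes had ratios between 0.277 and 0.77, that is, their lower mutant library was below the highest of the other 4 libraries.

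Counted over the 7 relatives alone, 1 (lrp1ab) was higher in mutants at an unadjusted p under 0.05 and 0 were lower, where 1.23% and 2.17% of all 20900 genes tested were. In overexpression against siblings 0 of the 7 were higher and 0 lower by the same measure (6.23% and 8.77% of all genes), and against mutants 0 were higher (2 with voom on rebuilt reads) and 1, lrp1ab, lower (8.68% and 8.9%). Both overexpression libraries lay above both siblings for 4 of the 7, lrp2a, lrp5, lrp6 and lrp8 (26.9% of all genes), and below them for 2, lrp1ab and vldlr (27%). The mutant libraries lay wholly above siblings for 1 of the 7 and below for 0 (13.3% and 13.4% of all genes), and overexpression wholly above mutants for 2, lrp2a and lrp6, and below for 1 (24.1% and 24.6%). In mutants against siblings the median log2 fold change of the 7 was -0.16, against -0.01 over all genes. At the adjusted threshold 0 of the 7 were called in any of the 3 comparisons, as was the case for 0 of 20900 genes (0%) by limma, with 711 genes at an unadjusted p under 0.05 in mutants against siblings, 3135 in overexpression against siblings and 3675 in overexpression against mutants. With 2 libraries a group, an exact two-sided permutation test of a single gene cannot go below 0.333. The limma fit did not call even hhex, the gene driven by the transgene, in overexpression against siblings. The paper, with another method, lists hhex and other genes as significant in that comparison. A gene not called here is therefore not shown to be unchanged.

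**Figure D2:**
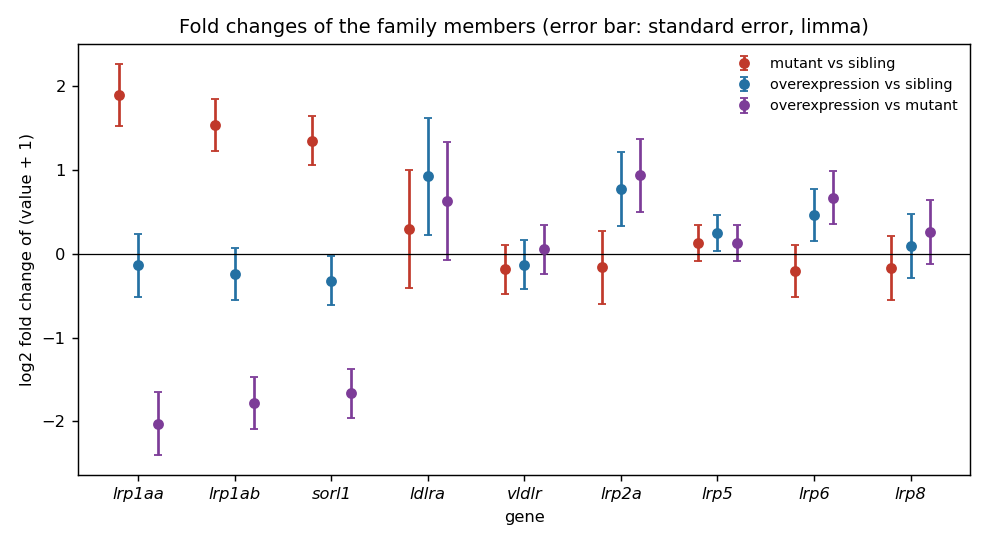
Log2 fold change of the value plus 1 for each of the 9 receptor genes in the 3 comparisons, with the standard error from limma as the bar. lrp1aa, lrp1ab and sorl1 lie between 1.35 and 1.89 in mutants against siblings and between -2.03 and -1.67 in overexpression against mutants, and the other 6 lie between -0.21 and 0.94 throughout; lrp1aa and sorl1 were chosen for their mutant values.

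The classical lipoprotein receptors had overlapping values in mutants and siblings. ldlra (ENSDARG00000029476, chromosome 3, 19149569 to 19173949), a homologue of the LDL receptor, which takes up cholesterol-rich particles, had values of 35 and 126 in siblings, 45 and 149 in mutants, while overexpression had 147 and 110. Replicate 1 of siblings and of mutants was low and replicate 2 of both was high, and the groups overlapped in every comparison. The 35 in sibling replicate 1 stands for about 43 reads, for which the counting error is 15.2%, smaller than the gap to its partner. The log2 fold change was 0.30 in mutants (SE 0.70, limma adjusted p = 1) and 0.92 in overexpression against siblings (SE 0.70, limma adjusted p = 0.533).

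vldlr (ENSDARG00000006257, chromosome 10, 15296893 to 15347025), homologous to the very low-density lipoprotein receptor, which also binds reelin in mammals, was among the least variable of the 9. It had 150 and 166 in siblings, 115 and 167 in mutants, and overexpression had 143 and 145, a 1.45-fold range over all libraries. The fold change was -0.19 in mutants and -0.13 in overexpression against siblings (SE 0.29, limma adjusted p = 1 and 0.844). lrp8 (ENSDARG00000070074, chromosome 6, 34528930 to 34828125), the homologue of the mammalian apolipoprotein E receptor 2 and partner of VLDLR in reelin signalling, had 169 and 162 in siblings, 220 and 98 in mutants, and overexpression had 183 and 170. Its mutant libraries lay on either side of all others, which gave a log2 fold change of -0.17 (SE 0.38, limma adjusted p = 1) that changed sign when mutant replicate 2 was left out.

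lrp2a (ENSDARG00000102506, chromosome 9, 48717448 to 48974769) is a homologue of megalin, the large endocytic receptor of absorptive epithelia such as the pronephros. Its values were 91 and 80 in siblings, 111 and 52 in mutants, while overexpression had 188 and 114. Both overexpression libraries exceeded the other 4, replicate 1 clearly and replicate 2 barely. The log2 fold change was 0.94 against mutants (SE 0.44, limma adjusted p = 0.311) and 0.77 against siblings (limma adjusted p = 0.419). When libraries were rescaled to the endothelial marker list, these became 0.03 and -0.06. A list of 8 pronephros markers summed to 453 and 208 in siblings, 294 and 1053 in mutants, and overexpression had 193 and 1809, and its part in the lrp2a values was not tested.

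The Wnt co-receptor genes overlapped between mutants and siblings and stood above both siblings in each overexpression library, before any rescaling to endothelial markers. lrp5 (ENSDARG00000006921, chromosome 25, 10546344 to 10672001) had 862 and 929 in siblings, 871 and 1089 in mutants, and overexpression had 1131 and 1002. All 6 libraries lay within a 1.31-fold range, and mutants overlapped siblings at a log2 fold change of 0.12 (SE 0.21, limma adjusted p = 1). Overexpression exceeded siblings by 0.25 (SE 0.21, limma adjusted p = 0.58), a difference that was -0.59 after rescaling to the endothelial list.

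lrp6 (ENSDARG00000100143, chromosome 4, 168033 to 195214) had 508 and 781 in siblings, 421 and 708 in mutants, while overexpression had 894 and 841. In siblings and mutants alike replicate 1 was the lower library, and both overexpression libraries lay above the other 4. The log2 fold change was -0.21 in mutants against siblings (SE 0.31, limma adjusted p = 1), 0.46 in overexpression against siblings (limma adjusted p = 0.49) and 0.67 in overexpression against mutants (limma adjusted p = 0.315), and both overexpression differences turned negative, to -0.38 and -0.24, after rescaling to the endothelial list. Without mutant replicate 2 the difference between overexpression and mutants was 1.04 with an adjusted p of 0.0427 from limma, in a fit that called 2505 of 20986 genes, and without mutant replicate 1 it was 0.29 with 0.712. ap3s2 overlaps lrp5 and dusp16 overlaps lrp6 on the opposite strand. The strand setting of the counting is not given in the sources used here. Reads overlapping several genes were left out, so reads from stretches that these pairs share may be missing. The levels of lrp5 and lrp6 are uncertain to that extent.

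Rescaling to the endothelial list divides each library by the level of those 10 genes and so moves all genes of a comparison together, the median of all genes to -0.80 in overexpression against siblings and -0.88 against mutants but to 0.06 in mutants against siblings. For lrp1aa, lrp1ab and sorl1 the difference between overexpression and mutants was then -2.94, -2.69 and -2.57.

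**Figure D3:**
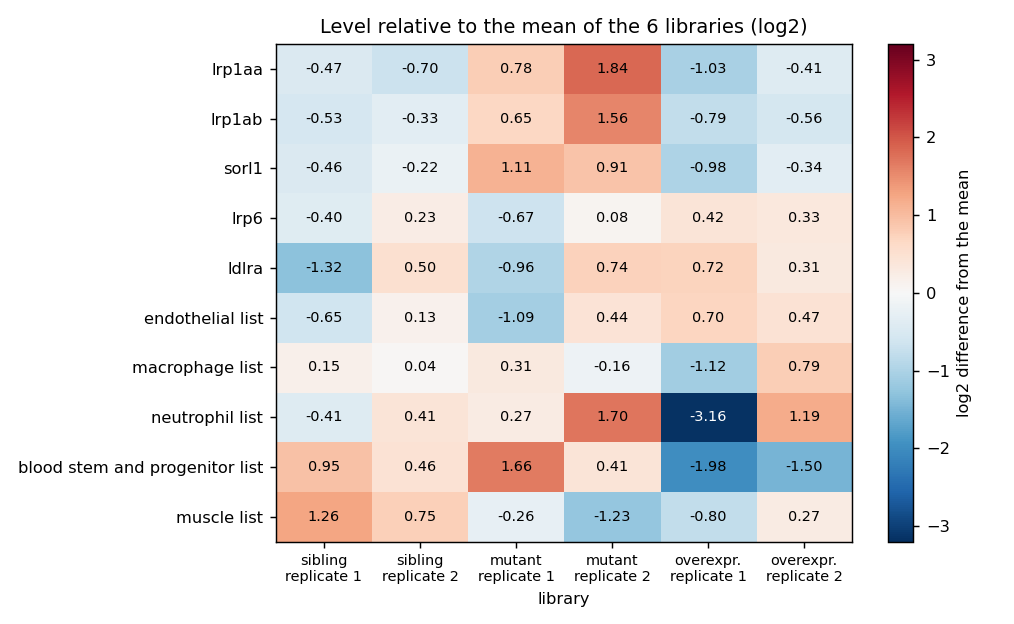
Level of 5 receptor genes and mean level of 5 marker lists in each of the 6 libraries, as the log2 difference from the mean over all libraries (red above, blue below). lrp1aa, lrp1ab and sorl1 are red in both mutant libraries and blue in the other 4. The mean level of none of the 5 marker lists shown has that pattern, though single genes of a list can differ from its mean. The part of the cell types in the receptor values was not tested. ldlra and lrp6 are low in sibling replicate 1 and mutant replicate 1, as is the endothelial list.

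The libraries were bulk RNA of sorted cells, in which fewer cells of a type and less RNA per cell cannot be told apart, so marker lists were set beside the receptors. Relative to its mean over libraries, the endothelial list stood at -0.65 and 0.13 (log2) in siblings, -1.09 and 0.44 in mutants, against 0.70 and 0.47 in overexpression. ldlra and lrp6 were low in the same pair of libraries, at -1.32 and -0.96 for ldlra and -0.40 and -0.67 for lrp6 in sibling and mutant replicate 1. The mutant libraries, in which lrp1aa, lrp1ab and sorl1 were high, held the lowest endothelial level in replicate 1 and a level above both siblings in replicate 2, where lrp1aa and lrp1ab were highest.

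LRP1 and SORL1 are also made by myeloid cells in mammals, and lists of other cell types differed between libraries. The 10 macrophage markers summed to 9460 and 8601 in siblings, 11935 and 6304 in mutants, and overexpression had 1203 and 4351. Within that list mpeg1.1 had 2 and 15 in siblings, 2 and 2 in mutants, and overexpression had 21 and 37, whereas spi1b had 159 and 210 in siblings, 356 and 291 in mutants, and overexpression had 16 and 294. The 6 neutrophil markers summed to 2812 and 4451 in siblings, 4492 and 11998 in mutants, and overexpression had 274 and 8098. The sum in mutant replicate 1 was barely above that in sibling replicate 2, and overexpression replicate 2 had a sum between those of the mutant libraries. By the mean log2 level of the list, mutant replicate 1 (0.27) lay below sibling replicate 2 (0.41). Of the 6 genes, 2 lay above siblings in both mutant libraries without overlap and 0 below (13.3% and 13.4% of all genes). The log2 fold changes of the 6 in mutants against siblings ran from 0.61 to 1.42. Their median was 1.0, against -0.01 over all genes. The 8 blood stem and progenitor markers summed to 3784 and 2866 in siblings, 6948 and 2748 in mutants, while overexpression had 810 and 1101. Of these 8, 2 lay above siblings in both mutant libraries without overlap and 0 below (13.3% and 13.4% of all genes). Their log2 fold changes in mutants against siblings ran from -1.0 to 2.55, with a median of 0.16. By the mean log2 level of the list, mutant replicate 2 (0.41) lay below both siblings (0.95 and 0.46) and mutant replicate 1 (1.66) above them. The list member gfi1aa, named after its values were seen, had 60 and 14 in siblings, 266 and 117 in mutants, and overexpression had 11 and 4. Muscle markers, 9 gene entries, summed to 75751 and 45771 in siblings, 21731 and 12493 in mutants, and overexpression had 12149 and 31786. Of these 9, 8 lay below siblings without overlap in mutants and 7 in overexpression (13.4% and 27% of all genes), and 0 lay above in either. None of these lists held a gene at 0 in all libraries, and their part in the receptor values was not tested.

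The genes whose pattern was most like that of lrp1aa, by Pearson correlation of log2(value + 1) over the 6 libraries, which include the libraries that chose it, were bub1ba, si:dkey-23a13.5, SNORD29, neo1a and si:dkey-237h12.3, with r between 0.985 and 0.991 among 11849 genes. Most of them varied much less than lrp1aa. bub1ba, a mitotic checkpoint kinase gene, had 198 and 194 in siblings, 238 and 294 in mutants, and overexpression had 171 and 202. neo1a was the exception, with 223 and 243 in siblings, 648 and 1187 in mutants, and overexpression had 206 and 327, a log2 difference of 1.91 between mutants and siblings. lrp1ab was the 7th most similar gene (r = 0.984) and sorl1 the 83rd (r = 0.903), while ldlra, vldlr and lrp5 had r between -0.02 and 0.07, and lrp6, lrp8 and lrp2a had -0.38, -0.58 and -0.70.

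For sorl1 the closest genes were triob, inpp5d, arfip1, cdc25b and phax, with r between 0.981 and 0.996. triob, encoding a guanine nucleotide exchange factor, had 672 and 741 in siblings, 1030 and 989 in mutants, while overexpression had 567 and 675. inpp5d, encoding the inositol phosphatase SHIP1 known from blood cells in mammals, had 531 and 562, 824 and 727, and 446 and 513 in the same order. In both, mutant libraries were highest and overexpression replicate 1 lowest, as for sorl1, but the log2 difference between mutants and siblings was 0.52 and 0.50 against 1.35 for sorl1.

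A wider list of 14 gene entries for other relatives, of which 13 passed the filter, held 1 gene past an unadjusted p of 0.05 in mutants. That gene was higher against siblings and 0 were lower (1.23% and 2.17% of all genes), and the median log2 fold change was -0.04. It was lrp2b, the second megalin homologue, with 23 and 19 in siblings, 45 and 77 in mutants, and overexpression had 6 and 9. These low values put the groups in one order with no overlap, with log2 fold changes of 1.45 in mutants against siblings (limma adjusted p = 1) and -2.84 in overexpression against mutants (SE 0.55, limma adjusted p = 0.133). The count of 1 was 0 without either sibling library and without mutant replicate 2. lrp2a had the opposite order between overexpression and mutants.

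Of the other relatives, 0 were at an unadjusted p under 0.05 in mutants against siblings. Over the whole list, 2 genes lay above siblings in both mutant libraries with no overlap and 3 below (13.3% and 13.4% of all genes). ldlrad4b, the 1 above beside lrp2b, had 53 and 49 in siblings, 71 and 82 in mutants, and overexpression had 66 and 54. ldlrb, the second LDL receptor homologue, had 203 and 161 in siblings, 98 and 198 in mutants, and overexpression had 172 and 204. lrp1bb, a homologue of LRP1B, had 33 and 45, 30 and 19, and 42 and 51 in the same order, so both mutant libraries were the lowest. lrp10 and lrp12 stayed between 431 and 593 and between 270 and 340 in all libraries.

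Of the 14 genes of the receptors' chaperones and endocytic adaptors, 0 passed the adjusted threshold in any comparison. In mutants against siblings 0 were past an unadjusted p of 0.05 (1.23% of all genes were higher and 2.17% lower). lrpap1, the chaperone that keeps LRP1 from binding ligands early, had 274 and 148 in siblings, 254 and 134 in mutants, while overexpression had 139 and 188, and the groups overlapped. In overexpression against siblings 3 genes were higher at an unadjusted p under 0.05 (6.23% of all genes were) and the median was 0.44 against 0.02 over all genes. After rescaling to the endothelial list 1 was higher (61 of 21238 genes were) and the median was -0.40, against -0.80 over all genes. The count was also smaller without either overexpression library or without sibling replicate 1, as was the count over all genes.

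Those 3 were dab2, gulp1b and mylipa. dab2, an adaptor that links LDL receptor family tails to clathrin, had 846 and 1891 in siblings, 543 and 1495 in mutants, and overexpression had 3020 and 2810, 1.20 higher than siblings on the log2 scale (SE 0.50, limma adjusted p = 0.323). The lower replicate of siblings and of mutants was replicate 1, as for the endothelial list. gulp1b, homologous to an engulfment adaptor that binds LRP1, had 6 and 13 in siblings, 8 and 52 in mutants, and overexpression had 103 and 80 (limma adjusted p = 0.213 against siblings). mylipa, homologous to the ubiquitin ligase that marks the LDL receptor for degradation, had 113 and 145, 148 and 186, and 222 and 229 in the same order (limma adjusted p = 0.264 against siblings).

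**Figure D4:**
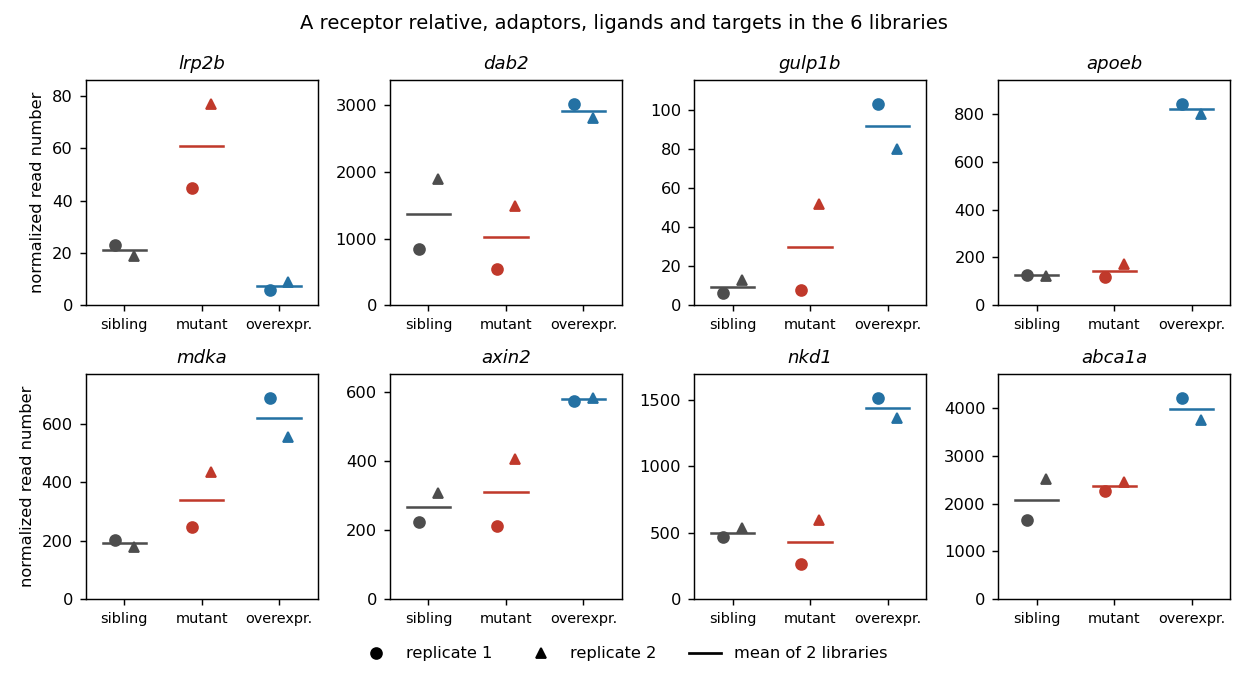
Normalized read number (vertical axes, from 0) of lrp2b, dab2, gulp1b, apoeb, mdka, axin2, nkd1 and abca1a in the 6 libraries, with circles for replicate 1, triangles for replicate 2 and a bar for the mean of 2. lrp2b alone among these 8 has its lowest values in overexpression, 6 and 9, and the other 7 have their highest values there, such as 842 and 799 for apoeb. The 8 genes were chosen after their values were seen, so they do not stand for their lists.

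The partners of sorl1 were other Vps10 receptors and retromer subunits. Of 10 tested genes, 0 were past an unadjusted p of 0.05 in mutants against siblings (1.23% of all genes were higher and 2.17% lower). The median log2 fold change was 0.08, with 2 genes above siblings without overlap and 0 below (13.3% and 13.4% of all genes). vps35, the core retromer subunit, had 664 and 603 in siblings, 571 and 613 in mutants, while overexpression had 699 and 665. sort1a, encoding sortilin, had 108 and 107, 115 and 282, and 289 and 157, so that 1 library in mutants and both in overexpression were high. sorcs2 had 691 in overexpression replicate 2 and between 32 and 59 in the other 5 libraries.

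Ligand genes of the receptors had a negative median fold change in mutants and a positive one in overexpression. Of 14 tested ligand genes, 1 was higher and 0 lower in mutants against siblings at an unadjusted p under 0.05 (1.23% and 2.17% of all genes), and 3 were higher and 0 lower in overexpression against siblings (6.23% and 8.77%), with a median of -0.37 in the former and 0.57 in the latter. In mutants 2 lay above siblings without overlap and 6 below (13.3% and 13.4% of all genes). After rescaling to the endothelial list the overexpression median was -0.27, against -0.80 over all genes. apoeb, an apolipoprotein E gene, had 126 and 123 in siblings, 117 and 171 in mutants, and overexpression had 842 and 799. Both overexpression libraries were several times every other library, at 2.71 on the log2 scale relative to siblings (SE 0.26, limma adjusted p = 0.0907) and 2.53 against mutants (SE 0.26, limma adjusted p = 0.067).

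mdka, encoding the growth factor midkine, which binds LRP1 in mammals, had 203 and 179 in siblings, 247 and 434 in mutants, and overexpression had 689 and 553. It was the 1 ligand gene higher in mutants, and its log2 fold change was 0.78 in mutants (limma adjusted p = 1) and 1.69 in overexpression against siblings (SE 0.31, limma adjusted p = 0.191). ctgfa, a matrix-associated ligand gene, had 659 and 825, 399 and 613, and 1159 and 1045 in the same order, and so was lowest in mutants. In overexpression the epidermis marker list was higher too, with 7 of 8 genes not overlapping siblings, against 26.9% of all genes, and its part in the ligand values was not tested.

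**Figure D5:**
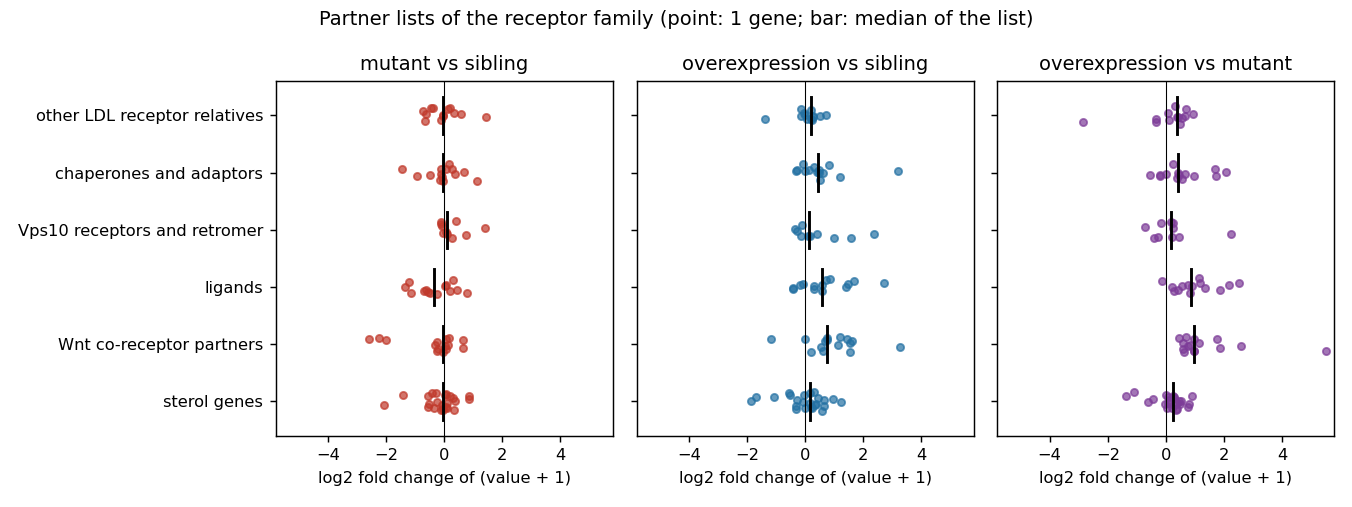
Log2 fold change of the value plus 1 for each tested gene (point) and the median (bar) of 6 lists of relatives and partners, in the 3 comparisons. In mutants against siblings the medians lie between -0.37 and 0.08, and in overexpression against mutants all are above 0, with the highest, 0.98, in the Wnt list (after rescaling to endothelial markers 0.07, with the other 5 below 0 and all genes centred on -0.88).

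Beside lrp5 and lrp6, the list of Wnt partners and targets had 15 tested genes, of which 4 were higher and 0 lower in overexpression against siblings at an unadjusted p under 0.05 (6.23% and 8.77% of all genes), and 6 were higher and 0 lower against mutants (8.68% of all genes were higher). The medians were 0.75 and 0.98. After rescaling to the endothelial list they were -0.01 and 0.07, against -0.80 and -0.88 over all genes. axin2, a feedback target of Wnt signalling, had 223 and 308 in siblings, 212 and 406 in mutants, while overexpression had 574 and 583, 1.14 higher than siblings on the log2 scale (SE 0.34, limma adjusted p = 0.244). nkd1, another feedback inhibitor, had 464 and 533, 265 and 595, and 1518 and 1363 in the same order (1.53 against siblings, limma adjusted p = 0.194). Both overexpression libraries exceeded the other 4 for both genes.

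lef1, a transcription factor of the pathway, had 319 and 324 in siblings, 179 and 434 in mutants, and overexpression had 1217 and 742. dkk1a, encoding a secreted inhibitor that binds LRP5 and LRP6, had 14 and 5 in siblings, 3 and 0 in mutants, and overexpression had 117 and 68. tspan12, which joins Frizzled and LRP5 in the receptor of Norrin in mammals, had 15 and 19 in siblings, 2 and 2 in mutants, while overexpression had 15 and 19, a low-value gene that was lower in both mutant libraries than in the other 4 (log2 fold change -2.58, SE 0.70, limma adjusted p = 1). The count of Wnt genes at an unadjusted p under 0.05 in overexpression against siblings was 8 without either mutant library, where 2492 of 20943 and 2431 of 20986 genes were higher by that measure, against 1302 of 20900 with all libraries, and 2 without overexpression replicate 1, where 402 of 20882 were.

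Of 24 tested genes of sterol synthesis and transport, 0 were past an unadjusted p of 0.05 in either direction in mutants against siblings (1.23% and 2.17% of all genes), with a median of -0.04 and log2 fold changes from -2.08 to 0.86. Of these, 3 lay above siblings and 3 below without overlap (13.3% and 13.4% of all genes). srebf2, the transcription factor gene that controls sterol synthesis and LDL receptor transcription in mammals, had 1130 and 1355 in siblings, 1237 and 1255 in mutants, and overexpression had 1171 and 1263. Its entry spans 260279 bases and overlaps other genes on both strands. Reads overlapping several genes were left out of the counting, so its level is uncertain to that extent. In overexpression 8 of the 24 lay above siblings and 5 below without overlap (26.9% and 27% of all genes). hmgcrb, a gene of the rate-limiting enzyme of the pathway, had 325 and 314, 343 and 330, and 204 and 240, and both overexpression libraries were the lowest (log2 fold change -0.53 against siblings, limma adjusted p = 0.332). Its paralogue hmgcra had 70 and 83, 69 and 72, and 106 and 68, and overexpression overlapped siblings (log2 fold change 0.15). abca1a, a cholesterol exporter gene, had 1647 and 2509, 2263 and 2464, and 4223 and 3763, and both overexpression libraries were the highest (0.97 above siblings, SE 0.24, limma adjusted p = 0.208).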

How the data were processed

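RNA of sorted endothelial cells (6 libraries) was sequenced as single-end reads. Per the study's methods, the authors trimmed reads with Reaper, aligned them with STAR (2.4.0a) to GRCz10, counted them per gene with featureCounts (1.4.5-p1), without reads assigned ambiguously, and normalized them with DESeq2. The deposited unit is a signal: the authors divided each read number by its library's size factor and rounded it, so count models were not used. log2(value + 1) of genes averaging 5 or more was fitted with limma (3.58.1, R 4.3.3) over 3 groups, with an empirical Bayes step with trend and robust estimation, and p-values were adjusted by Benjamini-Hochberg over 20900 genes. The fit was tested on simulated data.

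The members and lists were chosen with earlier results of these data known. Named by rule were the 9 members, hhex, and the 5 genes most correlated with lrp1aa and with sorl1; named list members and the genes around the ratio of 2 were chosen after their values were seen. Of the listed names, lrp4, cd320, sorcs3a, gga2, gga3a, gga3b, reln, lpla, thbs1a, fzd4, fzd6, rnf43 and pdgfrb were not matched and were not analysed here. Alternatives were other pseudocounts, filters and scalings, voom on rebuilt reads, 4 libraries only, a replicate block and each library left out; a crossed block was added after the data were seen.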

Additional observations from a re-analysis of the deposited data

How the results depend on the processing

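In mutants against siblings 0 genes were called under all alternatives that kept the 6 libraries or the 4 of the comparison, and 0 to 13 when 1 library was left out. In overexpression against siblings the calls were 4 with no filter, 841 with only the 4 libraries, 4 with quantile scaling, 76 after rescaling to the endothelial list and 0 to 839 with 1 library left out; in overexpression against mutants they were 10 with no filter, 96 after rescaling, 2 with voom and 0 to 2505 with 1 library left out. The replicate block called 0 genes in each comparison, with 734, 3315 and 3870 at an unadjusted p under 0.05. Deviations of same-numbered libraries correlated at 0.487 between siblings and mutants. Between overexpression and the others they correlated at -0.107 (siblings) and -0.204 (mutants). By this measure siblings and mutants went partly together by number, and the overexpression libraries did not go with the others. With 2 libraries a group, each group gives only 1 difference per gene, so these correlations cannot decide whether the numbers mark pairs. The block fitted a shared replicate effect over the 3 groups, and no fit paired siblings and mutants alone. With the overexpression numbers crossed, 689 and 1213 genes were called. Rescaling to the endothelial list turned overexpression against mutants to -0.27 for ldlra, -0.85 for vldlr, -0.78 for lrp5, -0.24 for lrp6 and -0.65 for lrp8, and against siblings to -0.06 for lrp2a, -0.59 for lrp5, -0.38 for lrp6 and -0.74 for lrp8, as the scaling lowers all genes there. voom, which moved the median of all genes to -0.21 in mutants against siblings, gave -0.0758 for lrp5 and 1.16 for sorl1. With 1 library left out, differences that changed sign ranged, in mutants against siblings, from -0.61 to 1.21 for ldlra, -0.45 to 0.0813 for vldlr, -0.70 to 0.38 for lrp2a, -0.039 to 0.28 for lrp5, -0.58 to 0.17 for lrp6 and -0.75 to 0.41 for lrp8; in overexpression against mutants, from -0.23 to 1.48 for ldlra, -0.21 to 0.32 for vldlr, -0.0327 to 0.29 for lrp5 and -0.32 to 0.84 for lrp8; and in overexpression against siblings, from -0.45 to 0.17 for lrp1aa. The counts above 100 without 1 library came from leaving out a mutant library, and the cause of these moves was not tested. Depth limits the least covered value, about 43 reads for ldlra, to a counting error of 15.2%.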
